A study of Mus musculus with 6 samples.

Results

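The genes described here are 10 immediate early transcription factors and response genes: the AP-1 subunits Jun, Junb, Jund, Fos, Fosb and Fosl2, the immediate early response genes Ier2 and Ier5, and the Krüppel-like factors Klf4 and Klf6. They were taken by gene symbol from a deposited expression table of 21878 genes in B16F10 cells, a pigmented mouse melanoma line selected for lung colonisation, and all 10 had a row. RNA of 3 libraries from cells kept in DMEM-HG and 3 libraries from cells kept in RPMI-1640 was sequenced, and the comparison asks how the transcriptome differs between these culture media. The groups share the genotype, given as WT, the time, given as 0, and a medium supplement of 10% fetal bovine serum with antibiotics. The medium is the only labelled difference between them. HG in the titles is not explained, and the label on treatment says DMEM alone. A protocol attached to every library describes adipogenic induction of confluent cells with dexamethasone, isobutylmethylxanthine and insulin, but no label of a library says that it was so treated. How long before harvest the cells were last fed, and at what density they were harvested, is not given in the sources used here. Whether the 3 libraries of a medium are separate cultures is not stated. The spread that the p-values below are read against may therefore be technical.

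Immediate early genes are transcribed within minutes of a growth factor, serum, stress or plating stimulus, without the need for new protein, because the factors that switch them on are already bound to their promoters or are activated by phosphorylation. Jun and Fos proteins pair through leucine zippers to form AP-1: Jun proteins can pair with each other, while Fos proteins need a Jun partner to bind DNA. Fos, Fosb, Jun, Junb, Ier2 and Klf4 transcripts are short-lived and fall back quickly after a stimulus, whereas Jund is expressed steadily in most cells, and in melanoma AP-1 activity has been tied to shifts between pigmented and dedifferentiated states.

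The promoters of 4 of the genes are shown because their deposited values took different courses between the media. Fos and Klf6 were lower in DMEM-HG, Junb was higher, and Jun overlapped. The courses of Klf6 and Jun depended on the processing: with a trend with length and GC removed, as described below, Klf6 was higher and Jun lower. Each line gives the 250 bases before the RefSeq transcription start (GRCm38.p6), written 5′ to 3′ on the strand of the gene. Capitals mark matches, on either strand, to the TATA box TATAAA, the CCAAT box CCAAT (in reverse complement where it lies on the other strand), TGACG, the core of the cyclic AMP response element, and the Jun promoter elements TGACATCA and TTACCTCA, to which Jun and ATF family dimers are known to bind.
Fos chr12:85473640-85473889 (plus strand): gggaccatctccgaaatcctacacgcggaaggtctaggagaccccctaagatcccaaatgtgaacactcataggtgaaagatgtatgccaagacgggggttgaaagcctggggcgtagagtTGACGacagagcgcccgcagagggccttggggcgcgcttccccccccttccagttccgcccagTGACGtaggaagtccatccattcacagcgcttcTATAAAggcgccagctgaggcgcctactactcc
Jun chr4:95052223-95052472 (minus strand): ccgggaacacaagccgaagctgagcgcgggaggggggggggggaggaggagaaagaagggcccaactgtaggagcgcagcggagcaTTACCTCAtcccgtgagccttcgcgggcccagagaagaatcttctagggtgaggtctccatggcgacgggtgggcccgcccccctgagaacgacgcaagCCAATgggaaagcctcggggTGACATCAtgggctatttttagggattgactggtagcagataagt
Junb chr8:84978749-84978998 (minus strand): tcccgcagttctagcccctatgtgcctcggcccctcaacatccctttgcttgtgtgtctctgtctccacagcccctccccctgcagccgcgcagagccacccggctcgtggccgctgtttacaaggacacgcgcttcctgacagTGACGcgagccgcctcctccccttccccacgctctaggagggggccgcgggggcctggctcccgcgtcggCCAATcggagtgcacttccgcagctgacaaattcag
Klf6 chr13:5861239-5861488 (plus strand): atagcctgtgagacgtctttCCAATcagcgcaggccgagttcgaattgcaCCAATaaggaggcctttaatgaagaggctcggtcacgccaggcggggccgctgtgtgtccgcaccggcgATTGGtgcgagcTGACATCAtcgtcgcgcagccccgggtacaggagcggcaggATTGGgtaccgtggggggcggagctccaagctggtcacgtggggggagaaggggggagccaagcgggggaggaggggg

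In the Fos window the TATA box lay 33 to 28 bases before the start, and TGACG occurred 129 to 125 and 66 to 62 bases before it. The Jun window held TGACATCA 45 to 38 bases, CCAAT 65 to 61 bases and TTACCTCA 164 to 157 bases before the start. TGACATCA also occurred in the Klf6 window, 119 to 112 bases before the start, beside 4 CCAAT boxes, and the Junb window had CCAAT 36 to 32 and TGACG 106 to 102 bases before the start. Among the 32851 RefSeq promoter windows of the same length, 2.93% held TGACATCA, 0.728% TTACCTCA, 17.8% TGACG, 33.8% CCAAT and 12.4% TATAAA. Of the 9 genes with such a window, none held the full cyclic AMP response element TGACGTCA (1.55% of all windows), TGACTCA or TGAGTCA (4.46%) or a CArG box, the serum response factor motif (1.47%), within these 250 bases. The GC box GGGCGG, not capitalised above, was in the windows of Fos, Fosb, Fosl2, Jun, Ier5, Klf4 and Klf6 and in 32.7% of all windows. Those member windows had a GC content of 58.4% (Fos) to 74.0% (Klf4), against a median of 52.4% over all windows. The Junb window, at 66.4%, held no GC box. The share of windows of like GC content was not taken. Any match to TGACGTCA would also match TGACG. The core element and both Jun promoter elements were added to the search after the sequences had been read. The Jund window lies before the RefSeq start at 70697739, whereas the GENCODE transcript of Jund starts at 70698949. At 47.6%, the GC content of that window is the lowest among the members. The Fosb window is set to a start 73 bases from that of the RefSeq gene. Absence of a match therefore holds only for the windows searched. These matches are letters in a window and were not related to binding.

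The values are FPKM, fragments scaled to gene length and to the mapped fragments of a library, so levels are per length. Comparisons between genes, as in the ranks and family shares below, rest on the gene lengths used. For Jund this was 2878 bases, against 1668 in its GENCODE transcript. The deposited values were also not corrected here for GC content. The libraries held between 36960000 and 46404000 reads as recovered from the steps of the FPKM values, and the 9 tested members were covered by 168 to 13139 reads in each library. Melanoma markers were high, with a summed level of 12964 to 13199 FPKM in DMEM-HG and 10677 to 10833 FPKM in RPMI-1640 over Mlana, Pmel, Tyr, Tyrp1, Dct, Mitf and Sox10. The single markers did not move together. In the test described below, Pmel, Dct and Sox10 were higher in DMEM-HG, Tyr and Mitf were lower, and Mlana and Tyrp1 were not called. Pmel averaged 3212 FPKM in DMEM-HG and 2020 FPKM in RPMI-1640, and Dct 4339 FPKM in DMEM-HG and 3376 FPKM in RPMI-1640. Adipocyte markers summed to 0.172 to 0.614 FPKM in DMEM-HG and 0 to 0.158 FPKM in RPMI-1640, with 4 of 8 at 0 in every library. Fibroblast markers summed to 5.83 to 6.34 FPKM in DMEM-HG and 8.69 to 9.18 FPKM in RPMI-1640, and leukocyte markers to 4.09 to 4.38 FPKM in DMEM-HG and 3.09 to 3.71 FPKM in RPMI-1640. Endothelial markers summed to 0.842 to 0.951 FPKM in DMEM-HG and 0.586 to 0.729 FPKM in RPMI-1640, and keratinocyte markers to 0.378 to 0.447 FPKM in DMEM-HG and 0.149 to 0.266 FPKM in RPMI-1640. Of these 4 lists, 2 of 8, 5 of 8, 2 of 6 and 5 of 6 genes were at 0 in all 6 libraries. Only 2 fibroblast and 2 leukocyte markers averaged 1 FPKM or more, so these sums rest on few genes. By the test described below, 1 of these fibroblast markers was lower in DMEM-HG and 1 was not called. Among these leukocyte markers, 1 was higher and 1 was not called. The part of such cells in the results was not tested, and in bulk RNA fewer cells of a type cannot be told apart from less RNA per cell.

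A gene was called when its limma p-value, adjusted by Benjamini-Hochberg over the 10624 genes that averaged 1 FPKM or more, was under 0.05. Log2 fold changes are DMEM-HG minus RPMI-1640 and were taken after adding 1 to each FPKM, which shrinks the change of a gene near 1 FPKM. Of the 9 members tested, 4 were higher in DMEM-HG (Jund, Junb, Fosl2 and Ier5), 4 were lower (Ier2, Klf4, Fos and Klf6), and Jun was not called. Fosb had a mean under 1 FPKM and was not tested. Over all tested genes, 76.0% were called, 35.4% higher and 40.6% lower, and nothing particular to the members is read from their count. The 3 libraries of each medium did not overlap for 8 of the 9 tested members, against 79.0% of all tested genes. The median log2 fold change of the members was -0.03, equal at this rounding to that of all tested genes, and the median absolute change was 0.42 for the members against 0.35 for all.

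**Figure D1:**
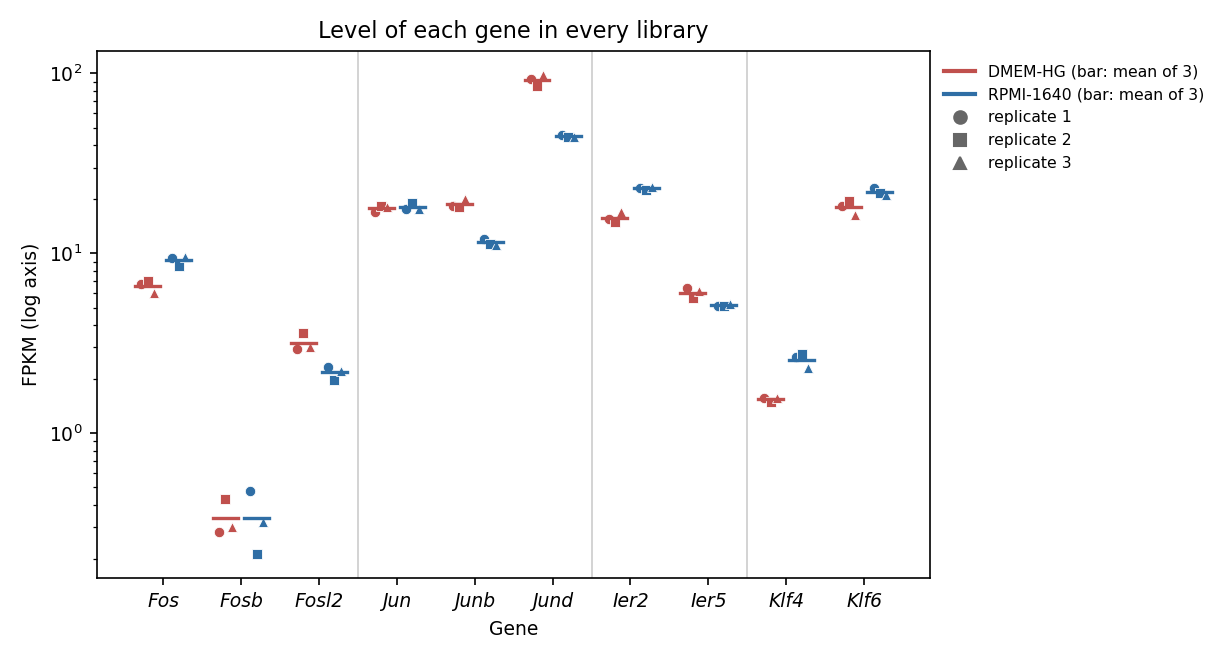
FPKM of each of the 10 genes in each library on a log axis, DMEM-HG points left and RPMI-1640 points right, with bars for the mean of 3 libraries. Jund lies highest in both media, at 85.0 to 98.4 FPKM in DMEM-HG and 44.1 to 45.6 FPKM in RPMI-1640, and the points of Jun and Fosb overlap between media.

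The Jun family supplies the partner that every AP-1 dimer needs. Positions are those of the RefSeq genes in GRCm38. Jund (chr8:70697739-70700616), its steadily expressed member, restrains proliferation in several cell types. Its level was 93.3, 85.0 and 98.4 FPKM in the DMEM-HG libraries, against 45.6, 44.4 and 44.1 FPKM in the RPMI-1640 libraries. Each DMEM-HG library stood above all RPMI-1640 libraries, and the mean was 2.06 times that in RPMI-1640. Jund rose by a log2 fold change of 1.03 ± 0.06 (SE, 3 libraries each; limma adjusted p = 4.95e-08), and 2.53% of all tested genes had a log2 fold change at least as high. With the length and GC trend removed it was 0.64, made with the GC content of a shorter GENCODE transcript than was counted. By level Jund stood at percentile 91.4 of the tested genes in DMEM-HG and at percentile 82.2 in RPMI-1640.

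Junb (chr8:84976909-84978748), which often opposes Jun in growth control, was lower than Jund in every library. It measured 18.3, 18.1 and 20.1 FPKM in DMEM-HG, against 12.0, 11.3 and 11.2 FPKM in RPMI-1640. The media did not overlap, and Junb was higher in DMEM-HG by 0.66 ± 0.06 (log2 fold change, SE; limma adjusted p = 1.91e-06), or by 0.21 with the length and GC trend removed. Jun (chr4:95049036-95052222), the founding AP-1 subunit and a target of its own product, measured 17.0, 18.2 and 18.0 FPKM in DMEM-HG and 17.6, 19.1 and 17.6 FPKM in RPMI-1640. These ranges overlapped, and the log2 fold change of -0.03 had a 95% interval of -0.15 to 0.10 (limma adjusted p = 0.682). The call for Jun depended on the processing: it was lower in DMEM-HG after removal of the length and GC trend (-0.20, limma adjusted p = 0.00248) and after scaling to a common total (-0.19, limma adjusted p = 0.0201), and quantile normalization gave 0.05 with no call.

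Summed over Jun, Junb and Jund, the family reached 129, 121 and 137 FPKM in DMEM-HG and 75.3, 74.9 and 72.9 FPKM in RPMI-1640, with means of 129 ± 7.63 FPKM in DMEM-HG and 74.3 ± 1.27 FPKM in RPMI-1640 (SD, n = 3 each). The sum was 1.73 times as high in DMEM-HG, and an exact permutation test over the 6 libraries (two-sided) gave p = 0.1, the smallest that 3 against 3 allows. Jund made up 71.6 ± 1.31% of the summed level in DMEM-HG and 60.2 ± 0.713% in RPMI-1640 (SD). Jun made up 13.8 ± 1.04% in DMEM-HG and 24.4 ± 1.09% in RPMI-1640. Junb made up 14.6 ± 0.355% in DMEM-HG and 15.5 ± 0.448% in RPMI-1640, and none of these 3 shares overlapped between the media (exact permutation p = 0.1 each, n = 3 each). In every DMEM-HG library Jund stood at 4.67 to 5.48 times the level of Jun, against 2.32 to 2.59 times in the RPMI-1640 libraries.

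Fos family proteins bind DNA as partners of Jun proteins. Fos (chr12:85473890-85477274), the classic serum-responsive proto-oncogene, measured 6.74, 7.01 and 5.99 FPKM in DMEM-HG, against 9.41, 8.51 and 9.55 FPKM in RPMI-1640. All DMEM-HG libraries stood below all RPMI-1640 libraries, and Fos fell by 0.42 on the log2 scale (SE 0.07; limma adjusted p = 0.000272), a mean 1.39 times as high in RPMI-1640. Quantile normalization brought this to -0.28. Fosl2 (chr5:32136472-32157840), which encodes the slower-acting subunit Fra-2 that lacks the strong activation domain of Fos, went the other way. It measured 2.93, 3.62 and 3.01 FPKM in DMEM-HG, against 2.34, 1.99 and 2.20 FPKM in RPMI-1640, with no overlap. Fosl2 was higher in DMEM-HG by 0.39 ± 0.09 (log2 scale, SE; limma adjusted p = 0.00131).

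Fosb (chr7:19302696-19310118), which is strongly induced by stimuli in neurons, was found in every library but at a low level. It was listed at 0.282, 0.430 and 0.302 FPKM in DMEM-HG and at 0.476, 0.214 and 0.320 FPKM in RPMI-1640, from 36 to 69 reads a library. The media overlapped, and a fit without the filter on low values gave a log2 fold change of 0.00 with a 95% interval of -0.17 to 0.18 (limma adjusted p = 0.968). Fosl1, the Fra-1 gene that is not among the 10, was listed at 0 in all 3 DMEM-HG libraries, against 0, 0.0259 and 0.0465 FPKM in RPMI-1640.

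The sum of the 4 Fos family genes (Fos, Fosb, Fosl1 and Fosl2) overlapped between the media, with 9.95, 11.1 and 9.30 FPKM in DMEM-HG and 12.2, 10.7 and 12.1 FPKM in RPMI-1640 (exact permutation p = 0.2, n = 3 each). Within that sum the make-up differed. Fos accounted for 65.2 ± 2.27% in DMEM-HG and 78.3 ± 1.22% in RPMI-1640, and Fosl2 for 31.5 ± 1.80% in DMEM-HG and 18.6 ± 0.497% in RPMI-1640 (SD, n = 3 each; exact permutation p = 0.1 for each share). Fos stood at 1.93 to 2.30 times the level of Fosl2 in DMEM-HG libraries and at 4.01 to 4.33 times in RPMI-1640 libraries.

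Set against each other, the Fos family transcripts amounted to 7.74, 9.12 and 6.81% of the Jun family transcripts in DMEM-HG, against 16.3, 14.3 and 16.6% in RPMI-1640. The libraries did not overlap, and the log2 ratio fell by 1.00 in DMEM-HG, with p = 0.1 in the exact permutation test (two-sided, n = 3 each). Leaving out each library in turn gave -1.11 to -0.90, and removal of the length and GC trend gave -0.70, where only Fos and Fosl2 could stand for the Fos family. These are transcript levels and say nothing of the amount of protein or dimer.

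**Figure D2:**
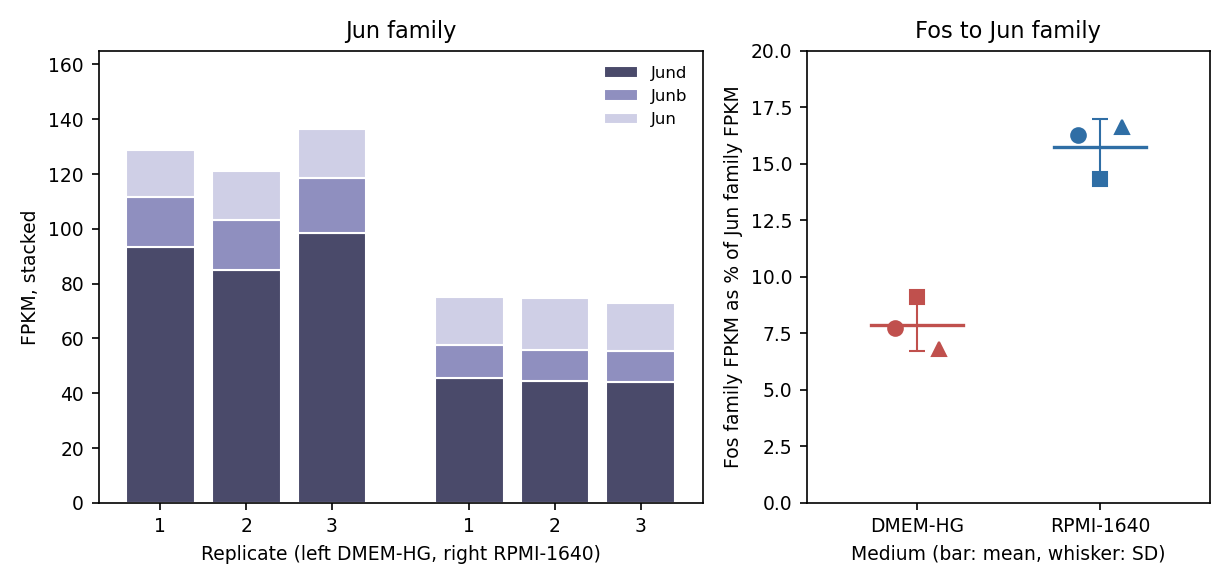
Left, FPKM of Jund, Junb and Jun stacked in each library, with DMEM-HG libraries left and RPMI-1640 libraries right. Right, summed Fos family FPKM as a percent of summed Jun family FPKM, a point per library with the mean as a bar and the SD as a whisker. The stacks reach 121 to 137 FPKM in DMEM-HG and 72.9 to 75.3 FPKM in RPMI-1640, and the percent is 6.81 to 9.12 in DMEM-HG and 14.3 to 16.6 in RPMI-1640.

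The immediate early response genes moved apart. Ier2 (chr8:84661331-84662852), a short nuclear protein induced by serum and growth factors, measured 15.6, 14.9 and 16.9 FPKM in DMEM-HG, against 23.1, 22.6 and 23.5 FPKM in RPMI-1640. The media did not overlap, and Ier2 was lower in DMEM-HG, with a log2 fold change of -0.52 ± 0.06 (SE; limma adjusted p = 9.18e-06), or -0.99 with the length and GC trend removed. Of all tested genes, 17.4% had a log2 fold change at or below this value. Ier5 (chr1:155096367-155099636), a regulator of heat shock factor activity and of phosphatase 2A targets, measured 6.40, 5.62 and 6.16 FPKM in DMEM-HG, against 5.07, 5.10 and 5.22 FPKM in RPMI-1640. The groups did not overlap, and Ier5 was higher in DMEM-HG by 0.20 ± 0.07 (log2 scale, SE; limma adjusted p = 0.0190). Quantile normalization gave Ier5 0.34. Its call was lost after scaling to a common total, with 0.07 (limma adjusted p = 0.444), and when replicate 1 of either medium or replicate 2 of RPMI-1640 was left out, where the adjusted p ran from 0.0589 to 0.0832.

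Both Krüppel-like factors were lower in DMEM-HG. Klf4 (chr4:55527137-55532475), a pluripotency and differentiation factor, measured 1.57, 1.49 and 1.58 FPKM in DMEM-HG and 2.64, 2.75 and 2.30 FPKM in RPMI-1640. The groups did not overlap, the mean was 1.66 times as high in RPMI-1640, and Klf4 changed by -0.48 ± 0.08 (log2 scale, SE; limma adjusted p = 0.000147). With voom on recovered reads, which uses no added 1 FPKM, it was -0.72. Klf6 (chr13:5861489-5870393), a growth-restraining factor induced by injury and serum, measured 18.4, 19.5 and 16.3 FPKM in DMEM-HG, against 23.0, 21.7 and 21.03 FPKM in RPMI-1640. It fell by 0.27 on the log2 scale (SE 0.07; limma adjusted p = 0.00400), and by 0.43 after scaling to a common total, but removal of the length and GC trend turned its direction, to 0.14 higher in DMEM-HG (limma adjusted p = 0.00836).

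**Figure D3:**
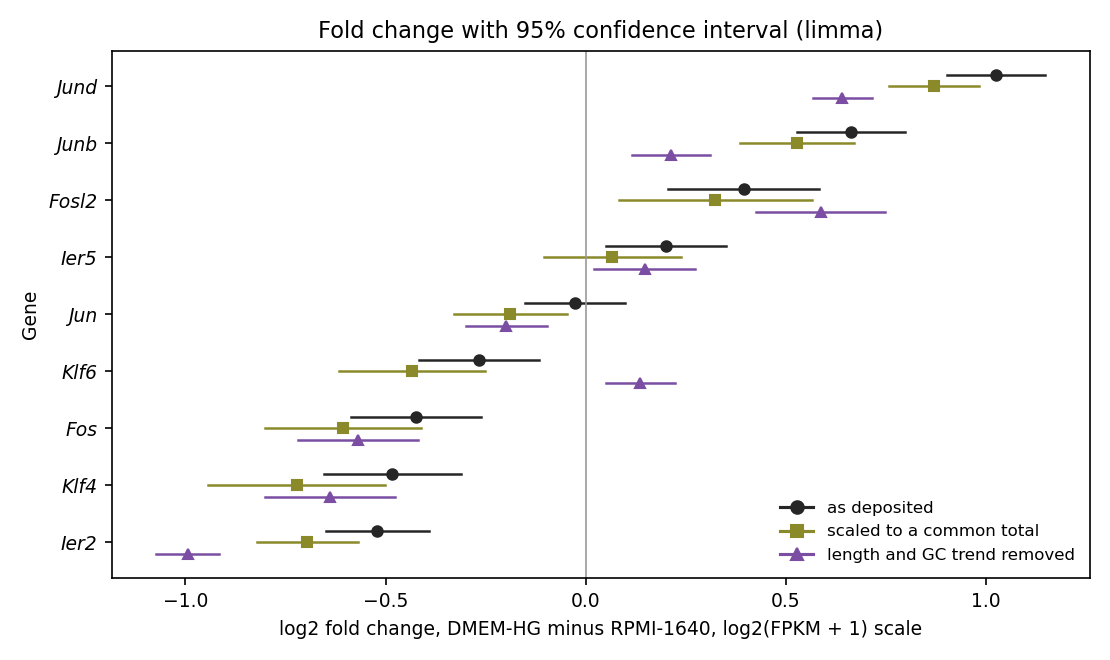
Log2 fold change of the 9 tested genes, DMEM-HG minus RPMI-1640, with 95% intervals, from the deposited values and from 2 alternatives, the length and GC trend removed and scaling to a common total. Jund, Junb and Fosl2 lie above 0 and Ier2, Klf4 and Fos below 0 in all of these, while Klf6 changes side and the interval of Jun spans 0 only with the deposited values.

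The order of levels changed below Jund. In DMEM-HG, Jund was followed by Junb, Klf6 and Jun, whose ranges overlapped from each to the next, then by Ier2, then by Fos and Ier5, which overlapped, and then by Fosl2, Klf4 and Fosb. In RPMI-1640, Jund was followed by Ier2 and Klf6, whose ranges overlapped, then by Jun, Junb, Fos and Ier5, each apart from the next, then by Klf4 and Fosl2, which overlapped, and by Fosb. Junb was thus at rank 2 by mean level in DMEM-HG, at 18.8 ± 1.12 FPKM, and at rank 5 in RPMI-1640, at 11.5 ± 0.456 FPKM. Ier2 was at rank 5 in DMEM-HG, at 15.8 ± 1.05 FPKM, and at rank 2 in RPMI-1640, at 23.1 ± 0.469 FPKM (SD, n = 3 each). These ranks are of the deposited values and were not drawn again with the length and GC trend removed. With that removal the log2 fold change was 0.21 for Junb against 0.66 as deposited, and 0.14 for Klf6 against -0.27. It was -0.20 for Jun against -0.03, and -0.99 for Ier2 against -0.52. The change in rank of Junb may therefore depend on the processing.

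Gene structure and base composition were read from the longest GENCODE transcript, taken among the protein-coding ones where a gene had any. Jun, Junb, Jund, Ier2 and Ier5 have a single exon, as 1.92% of the tested genes do, and the median of those 198 genes was 0.06 on the log2 scale, with 42.4% called higher and 30.3% lower. Among the tested genes, the GC content of Jund (67.1%) stood at percentile 99.8, that of Junb (62.6%) at percentile 98.7 and that of Ier2 (60.9%) at percentile 96.9. For the single-exon members, the gene lengths recovered from the FPKM values equalled those of the RefSeq genes. For Jund this is 2878 bases against 1668 in GENCODE, so its GC content is that of a shorter transcript than was counted. Klf6, with 42.4%, was at percentile 12.0. Across 10324 tested genes the log2 fold change ran with GC content (Spearman rho 0.487) and against length (rho -0.467), as a description over genes that share libraries. The 10.0% of genes with the highest GC changed by a median of 0.37 on the log2 scale, with 69.7% called higher and 11.2% lower, and the 10.0% with the lowest GC by a median of -0.39. Jund and Junb stood on that side and Ier2, at similar GC, did not.

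After the trend with length and GC was removed from each library, all 9 tested members were called, 5 higher and 4 lower, against 73.9% of genes called (36.5% higher and 37.4% lower). Jund remained higher by 0.64 ± 0.03 (SE; limma adjusted p = 5.62e-08) and Junb by 0.21 ± 0.04 (limma adjusted p = 0.00115). For Jund the removal used the GC content of the shorter GENCODE transcript with the recovered length of 2878 bases. The SE does not cover this mismatch, and the family ratio with the trend removed rests on the same value. Ier2 was then lower by a log2 fold change of -0.99 ± 0.04 (limma adjusted p = 5.43e-09). Fosl2 (0.59), Fos (-0.57) and Klf4 (-0.64) were somewhat further from 0 than with the deposited values, and Ier5 (0.15) nearer. With libraries scaled to a common total, which shifted the median of all genes by -0.16 on the log2 scale, 3 members were higher, 5 lower and Ier5 not called, against 76.5% of all genes called, 25.0% higher and 51.5% lower.

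DMEM-HG replicate 3, whose title has a code L3 where the others have L2, stood apart in base composition: its deviation from the mean of its medium ran with GC at rho 0.670 over genes, against -0.482 and -0.440 for replicates 1 and 2. In RPMI-1640 these values were -0.312, -0.211 and 0.435 for replicates 1, 2 and 3. Within DMEM-HG, Junb, Jund and Ier2 were highest and Fos and Klf6 lowest in that library. Without it, the log2 fold changes of the called members kept their direction and their call.

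**Figure D4:**
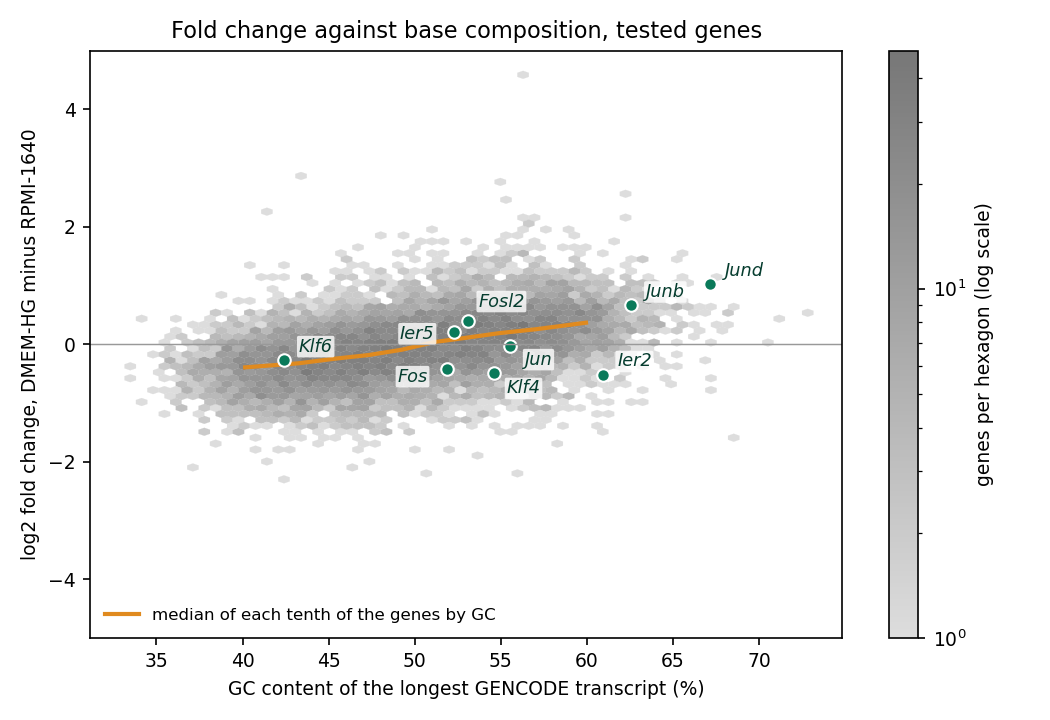
Log2 fold change (DMEM-HG minus RPMI-1640) of tested genes against the GC content of their longest GENCODE transcript, protein-coding where there is one. Shading gives the number of genes on a log scale. The median of 10 groups of genes of equal size, ordered by GC, is drawn as a line and the 9 tested members as points. The line climbs from -0.39 at the lowest to 0.37 at the highest GC, Jund and Junb lie above it at high GC, and Ier2 lies below it.

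In the 3′ untranslated region, AU-rich elements mark many immediate early transcripts for rapid decay. The pentamer ATTTA occurred 8 times in Fosl2, 7 in Klf6, 4 each in Fos and Jun, 2 each in Junb and Ier5, once each in Fosb, Jund and Klf4, and not in Ier2. These counts are not per length. The region has 4656 bases in Fosl2, 3114 in Klf6, 2148 in Fosb, 2146 in Ier5 and 1236 in Jun. It has 985 bases in Klf4, 818 in Fos, 758 in Ier2, 536 in Jund and 488 in Junb. A short word is met more often in a longer region, and its share over all genes was not taken. The nonamer TTATTTATT, searched on the transcript strand and containing the pentamer, occurred once in Fos and once in Fosl2, which moved in opposite directions. Over the 858 tested genes with the nonamer (8.31%) the median of the log2 fold changes was -0.27, and it was -0.03 after removal of the length and GC trend.

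Whether counting used strand is not given in the sources used here. In GENCODE, the antisense gene Gm11175 overlaps Jund over 919 bases and Junos overlaps Jun over 689 bases. Reads of these pairs may therefore not be separate, although RefSeq lists no overlap for Jun or Jund. Prdx2 overlaps the Junb gene of GENCODE over 351 bases. The length recovered for Junb, 1840 bases, is that of the RefSeq gene, which no other RefSeq gene overlaps.

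Other genes of the pathway were read from lists of known members. The list counts below stand beside 35.4% of all tested genes called higher and 40.6% lower. With the length and GC trend removed these shares were 36.5% and 37.4%. Among other AP-1 and bZIP partners, 4 of 9 tested were higher and 4 lower in DMEM-HG (median log2 fold change -0.02; with the trend removed, 1 higher and 4 lower). Atf3, a stress-induced partner of Jun, averaged 12.3 ± 0.159 FPKM in DMEM-HG and 25.1 ± 1.03 FPKM in RPMI-1640 (SD, log2 fold change -0.97, limma adjusted p = 5.69e-08). Maff, a small Maf protein, was higher by 0.81 (0.45 with the trend removed), and Batf3, a bZIP protein that pairs with Jun proteins, by 0.78 but only 0.18 and not called with the trend removed. Of the other Krüppel-like factors, 2 of 9 tested were higher and 7 lower (median -0.52; 3 and 6 with the trend removed), led by Klf11 (-0.97), Klf3 (-0.88) and Klf7 (-0.72, or -0.19 with the trend removed).

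Of 25 other immediate early genes, 19 were tested, and 7 were higher and 10 lower in DMEM-HG (median -0.17; 5 and 10 with the trend removed, where 17 had values). Egr1, a zinc finger factor induced beside Fos by serum, measured 2.03, 2.40 and 1.94 FPKM in DMEM-HG, against 7.14, 7.46 and 7.21 FPKM in RPMI-1640. It was lower by a log2 fold change of -1.41 (limma adjusted p = 4.38e-08), further from 0 than any tested member. Cyr61, a secreted matrix protein, averaged 29.8 ± 1.05 FPKM in DMEM-HG and 99.2 ± 1.65 FPKM in RPMI-1640, a log2 fold change of -1.70, and the growth regulator Myc was lower by a log2 fold change of -0.77.

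Upstream of the members, the factors that bind immediate early promoters (serum response factor, its ternary complex and myocardin-related partners, and the CREB family) gave 4 of 12 higher and 5 lower (median -0.09), or 3 and 6 with the trend removed, where 10 had values. The largest changes were in Elk4, a ternary complex factor (-1.49), Creb1 (-0.92, or -0.19 with the trend removed) and Atf1 (-0.73). Of 19 mitogen-activated protein kinases and their kinases and targets, 8 were higher and 6 lower (median 0.05), or 7 and 3 with the trend removed. The kinases Rps6ka1 and Rps6ka3, which phosphorylate Fos and CREB, had log2 fold changes of 1.01 and -1.01, or 0.78 and -0.29 with the trend removed. Mapk3, the kinase ERK1, was higher by 0.86, or 0.37 with the trend removed. Of 12 proteins that bind AU-rich elements or join in decay, none was higher and 11 were lower (median -0.63), or 8 with the trend removed (median -0.26). Of all tested genes, 40.6% were lower, and 37.4% with the trend removed. The 3 with the largest changes were Tia1 (-1.26, or -0.84 with the trend removed), Cnot6 (-0.93, or -0.32) and Khsrp (-0.92, or -1.05).

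Downstream, 12 of 19 genes often cited as AP-1 targets were tested, and 6 were higher and 4 lower (median 0.12; 4 and 5 with the trend removed). Spp1, the secreted phosphoprotein osteopontin, averaged 10.7 ± 0.154 FPKM in DMEM-HG and 0.570 ± 0.0726 FPKM in RPMI-1640, a log2 fold change of 2.89 (limma adjusted p = 2.35e-10). Hmox1, which degrades haem, was higher by 0.59 (0.32 with the trend removed), and the matrix protein Fn1 was lower by a log2 fold change of -0.57 (-0.24 with the trend removed).

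**Figure D5:**
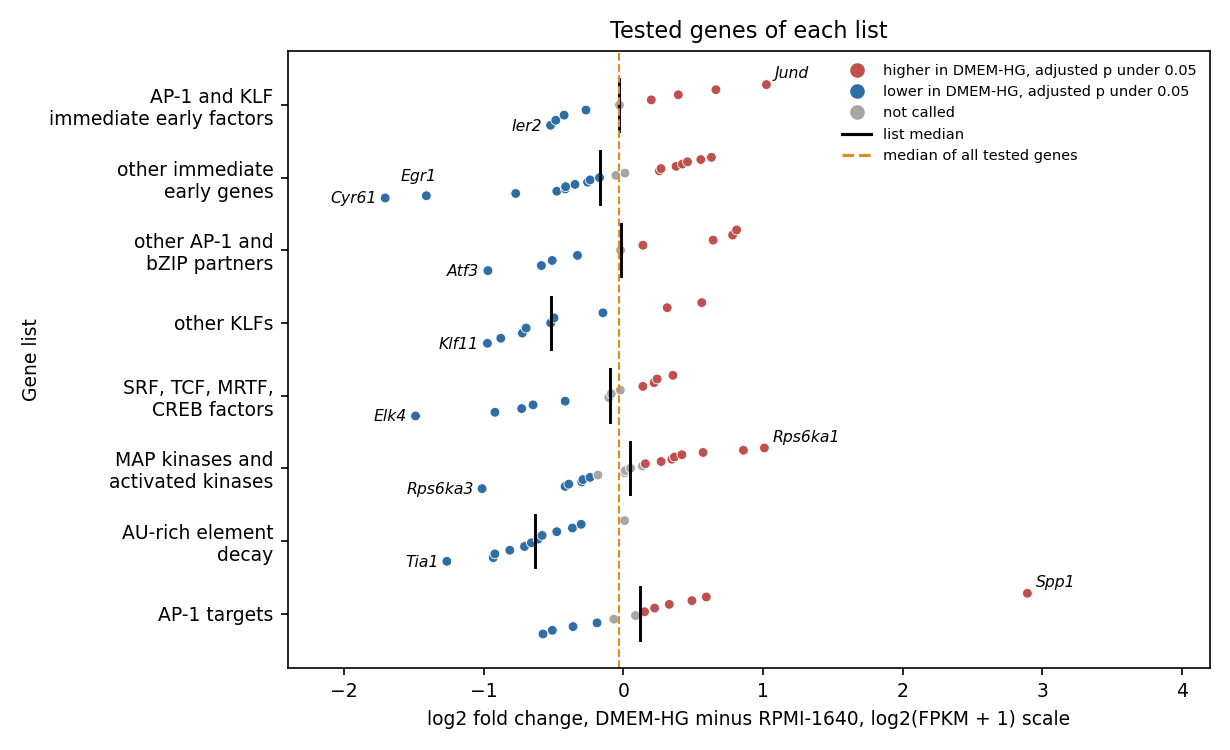
Log2 fold change, DMEM-HG minus RPMI-1640, of every tested gene of the members and of the 7 pathway lists, coloured by call, with the list median as a bar and the median of all tested genes as a dashed line. The AU-rich element decay list has a median of -0.63, and the members' median lies near that of all genes, at -0.03.

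The genes nearest in profile were sought among 8485 genes averaging 5 FPKM or more, by Euclidean distance of centred log2(FPKM + 1) over the 6 libraries. For Fos they were Ints10, Zcchc9 and Glis3 (distances 0.0472 to 0.0709), for Jun Rabggta, Ubqln2 and Rgp1 (0.0576 to 0.0731), and for Klf4 Tprkb, Fam219b and Rbm18 (0.0691 to 0.0934). Ints10 had a log2 fold change of -0.43 beside -0.42 for Fos. Klf4, at a mean of 1.55 FPKM in DMEM-HG and 2.56 FPKM in RPMI-1640, lies below the genes searched. The added 1 FPKM therefore shrinks its change more than theirs, and its nearest genes depend on that scale.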

How the data were processed

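B16F10 RNA was extracted with Trizol and libraries were made with a SMARTer kit, per the labels' protocols. The authors deposited FPKM (fragments scaled to gene length and to a library's mapped fragments), with a column for each library. GRCm38 and mm10 are the builds named in the submitters' processing notes. Aligner, counter, annotation and strand setting: not given in the sources used here. Titles also carry a code that is 3 in all DMEM-HG and 1 in all RPMI-1640 libraries. It cannot be told apart from the medium.

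Libraries were grouped by the medium in their titles. Genes averaging 1 FPKM or more (10624 of 21878; 6308 were 0 in every library) were fitted in limma 3.58.1 (R 4.3.3; lmFit, eBayes with trend) on log2(FPKM + 1), medium as the only term, two-sided, Benjamini-Hochberg over all tested genes, called at 0.05, with values as deposited. The fit was tested on simulated data with known changes. Single values per library were compared with exact permutation tests. The members, the lists, the tests and the naming rule were chosen with earlier results of these data known. The rule names all members, up to 3 called genes with the largest change of each pathway list, Egr1 and Fosl1, the melanoma markers, and the 3 genes nearest in profile to Fos, Jun and Klf4. Zfp36 stands in 2 lists.

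Whole reads were recovered from the FPKM steps for 10623 of the 10624 tested genes (within 0.001 read). They gave library totals, and voom on them was an alternative. The totals are the value shared by the largest number (79) of 720 single-transcript genes. Depth limits Fosb most, and intervals cover the spread between libraries. Length and GC trends were removed with natural splines (5 degrees of freedom) for 10323 of the 10324 tested genes with a GC value from GENCODE M21. Other alternatives were pseudocounts of 0.01 and 0.1, other filters and scalings, eBayes without trend, leaving out each library, and the replicate number as a block. Deviations of same-numbered libraries correlated at 0.151, 0.150 and 0.382 over genes, which is over 0.1 in each, so a fit with the numbers as pairs is given beside the unpaired one. Numbers 1 and 2 are not told apart by this: DMEM-HG 1 correlated with RPMI-1640 2 at 0.131 and DMEM-HG 2 with RPMI-1640 1 at 0.137. The labels do not state a pairing, and the same-number correlations fell to 0.0498, 0.0374 and 0.137 with the trend removed. Promoter sequences are RefSeq's, matched by symbol for 9 of the 10 members.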

Additional observations from a re-analysis of the deposited data

How the results depend on the processing

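Jund, Junb, Fosl2, Ier2, Fos and Klf4 kept their direction and their call under every alternative run for them, with log2 fold changes of 0.64 to 1.08, 0.21 to 0.75, 0.32 to 0.59, -0.99 to -0.47, -0.61 to -0.28 and -0.72 to -0.43. The 0.64 of Jund was made with the GC content of a shorter transcript than was counted. Fosl2 and Klf4 gave no value with the filter of at least 5 FPKM. Klf6 turned to 0.14 with the length and GC trend removed, with and without the replicate block (limma adjusted p = 0.0147 and 0.00836). Jun, never called with a positive sign, gave 0.0468 with quantile normalization and 0.0117 with median ratio scaling, ran from -0.0460 to 0.0109 without each library in turn (0.0019 without DMEM-HG replicate 1 and 0.0109 without RPMI-1640 replicate 2), and was called lower with the trend removed and with a common total. Over the 7 pathway lists, 31 genes were called higher and 46 lower (Zfp36 counted once), and 20 were called higher with a common total, where the median of all genes shifted by -0.16. Across all genes, 46.6% of calls were higher in DMEM-HG, and 32.7% with a common total. Leaving out each library in turn gave 7451 to 8012 called genes against 8078, 3 to 4 members higher and 4 lower, 28 to 29 list genes higher and 41 to 43 lower, a log2 ratio of Fos to Jun family of -1.11 to -0.90, and differences in share of -11.1 to -9.96 points for Jun, -1.03 to -0.605 for Junb and 10.9 to 12.1 for Jund. The replicate block gave 8432 called genes (3936 higher, 4496 lower), changed no call of a member, and in a sign-flip test of the pairs left the family log2 ratio at -1.004 (exact p = 0.25, the smallest 3 pairs allow). Depth limits Fosb, at 36 to 69 reads a library.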
